A study of Mus musculus with 2 samples.

Results

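The chemokines Cxcl1, Cxcl2, Cxcl3 and Cxcl5, which draw neutrophils, and Cxcr2, the receptor they share, were followed by cell class in single-cell RNA sequencing of inflamed mouse colon. They were picked by gene symbol and make up 5 of the 55357 genes listed in the deposited matrices. All samples belonged to 1 group: mid-colon of 7-week-old mice, housed without specific pathogens, after 6 days of 3% dextran sulfate sodium (DSS), which damages the epithelium and brings on colitis. The group held 2 libraries, numbered as repeats, and neither strain nor genotype is given in the sources used here. No untreated sample was used here, so no value below measures an effect of DSS. The labels do not tie the repeats to separate animals, although the deposited files are numbered by mouse, so the p-values reflect the spread among these samples alone, and that spread may be technical.

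The chemokines are small secreted proteins with a glutamate-leucine-arginine motif before the first cysteines, and they bind Cxcr2, a receptor coupled to inhibitory G proteins. Cxcr2 carries neutrophils out of the bone marrow and into inflamed tissue, including the colon. In stromal and myeloid cells the ligand genes are typical targets of NF-kappaB, which is switched on by interleukin-1, TNF and microbial products, while interleukin-17 prolongs the life of their mRNAs.

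The ligand genes lie together. In the GENCODE M21 annotation of build GRCm38 (mm10), Cxcl5 (ENSMUSG00000029371, chr5:90759360-90761624), Cxcl3 (ENSMUSG00000029379, chr5:90786103-90789600), Cxcl1 (ENSMUSG00000029380, chr5:90891241-90893115) and Cxcl2 (ENSMUSG00000058427, chr5:90903871-90905938) are all on the plus strand. With Ppbp, Pf4 and Cxcl15 they form a run of 7 genes over 146.6 kb. The receptor gene stands apart at chr1:74153989-74161246 (Cxcr2, ENSMUSG00000026180, plus strand). The sequence just before each start is shown for 3 ligand genes because these windows share a run of letters that reads as an NF-kappaB motif. The promoter reference used here had no entry for Cxcl5, so its window was not examined for this run or the other motifs. Capitals mark the longest run shared by all 3 windows, 11 letters long. The sequences are from RefSeq (GRCm38.p6, plus strand, 120 bases each), from chr5:90891121-90891240 for Cxcl1, chr5:90903751-90903870 for Cxcl2 and chr5:90785981-90786100 for Cxcl3.
Cxcl1: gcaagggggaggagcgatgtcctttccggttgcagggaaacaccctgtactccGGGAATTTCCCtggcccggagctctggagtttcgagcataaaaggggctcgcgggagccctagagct
Cxcl2: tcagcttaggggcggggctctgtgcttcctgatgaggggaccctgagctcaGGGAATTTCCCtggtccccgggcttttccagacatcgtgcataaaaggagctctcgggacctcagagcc
Cxcl3: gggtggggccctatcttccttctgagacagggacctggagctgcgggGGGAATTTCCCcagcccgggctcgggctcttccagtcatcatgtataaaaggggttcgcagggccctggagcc
Each window ends just before the earlier of the GENCODE and RefSeq starts, which is GENCODE's for Cxcl1 and Cxcl2 (4 and 28 bases before RefSeq's) and RefSeq's for Cxcl3. The run, GGGAATTTCCC, begins 67 bases before the window's end in Cxcl1, 69 in Cxcl2 and 73 in Cxcl3. Among 32817 RefSeq promoters of 300 bases, 14 (0.0427%) held it on either strand; the run was picked because these windows share it, so its rarity is a description. The TATA-like letters ATAAAAG, which do not overlap it, begin 30, 29 and 29 bases before the window's end in Cxcl1, Cxcl2 and Cxcl3, and 5.41% of all promoters held them. The AP-1 motif TGANTCA, found in 7.81% of promoters, was in none of these windows or in that of Cxcr2, and the Cxcr2 window held neither the shared run nor ATAAAAG. A match is a description of letters, and binding was not measured.

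The libraries held 76622643 and 94204110 unique molecular identifiers (UMIs), and 5459 and 8461 cells were kept, with median depths of 7924 and 6471 UMIs; 18 barcodes occurred in both. Cells were sorted into classes by clustering without the chemokine, receptor and pathway genes, and each name means "like" that type by markers; genes that vary with the held-out ones were used, which ties the classes to them in part. Tests used 10 classes (a minimum of 20 cells per library), on counts summed per class and library, in edgeR's quasi-likelihood test with the library as a block. Levels are CPM scaled by the trimmed mean of M values (TMM CPM), given for library 1 and then library 2, and differences are log2 ± SE. The neutrophil class (442 and 932 cells) expressed all 10 of its markers, summing to 324638 and 295526 CPM. In each other tested class at most 1 of its own markers was at 0 in a library.

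Cxcl1, a main ligand made by stromal and endothelial cells, was highest, among the tested classes, in 2 structural ones; the few cells like smooth muscle or pericytes (13 and 23), too few to test, had 2284 and 1527 plain CPM, above both. In endothelial cells it stood at 352 and 821 TMM CPM, in fibroblasts at 585 and 577, and in mononuclear phagocytes at 183 and 98.8. The endothelial and fibroblast ranges overlapped, both lying above phagocytes in each library. Endothelium against fibroblasts gave 0.02 ± 0.28 (adjusted p = 0.997, a pair in which 26.2% of all genes were called), with the sign depending on the library left out (-0.53 to 0.45). With only cells of at least 500 genes it rose to 1.60 (adjusted p = 4.4e-05), a setting in which the subepithelial fibroblasts were not in the fibroblast class. Fibroblasts exceeded phagocytes by 2.04 ± 0.28 (adjusted p = 3.49e-06), a pair in which 53.3% of genes were called. Every other tested class was lower, from a mean of 17.7 in dendritic cells to 2.96 in T, NK and innate lymphoid cells, and neutrophils themselves were at 12.7 and 11.4.

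**Figure D1:**
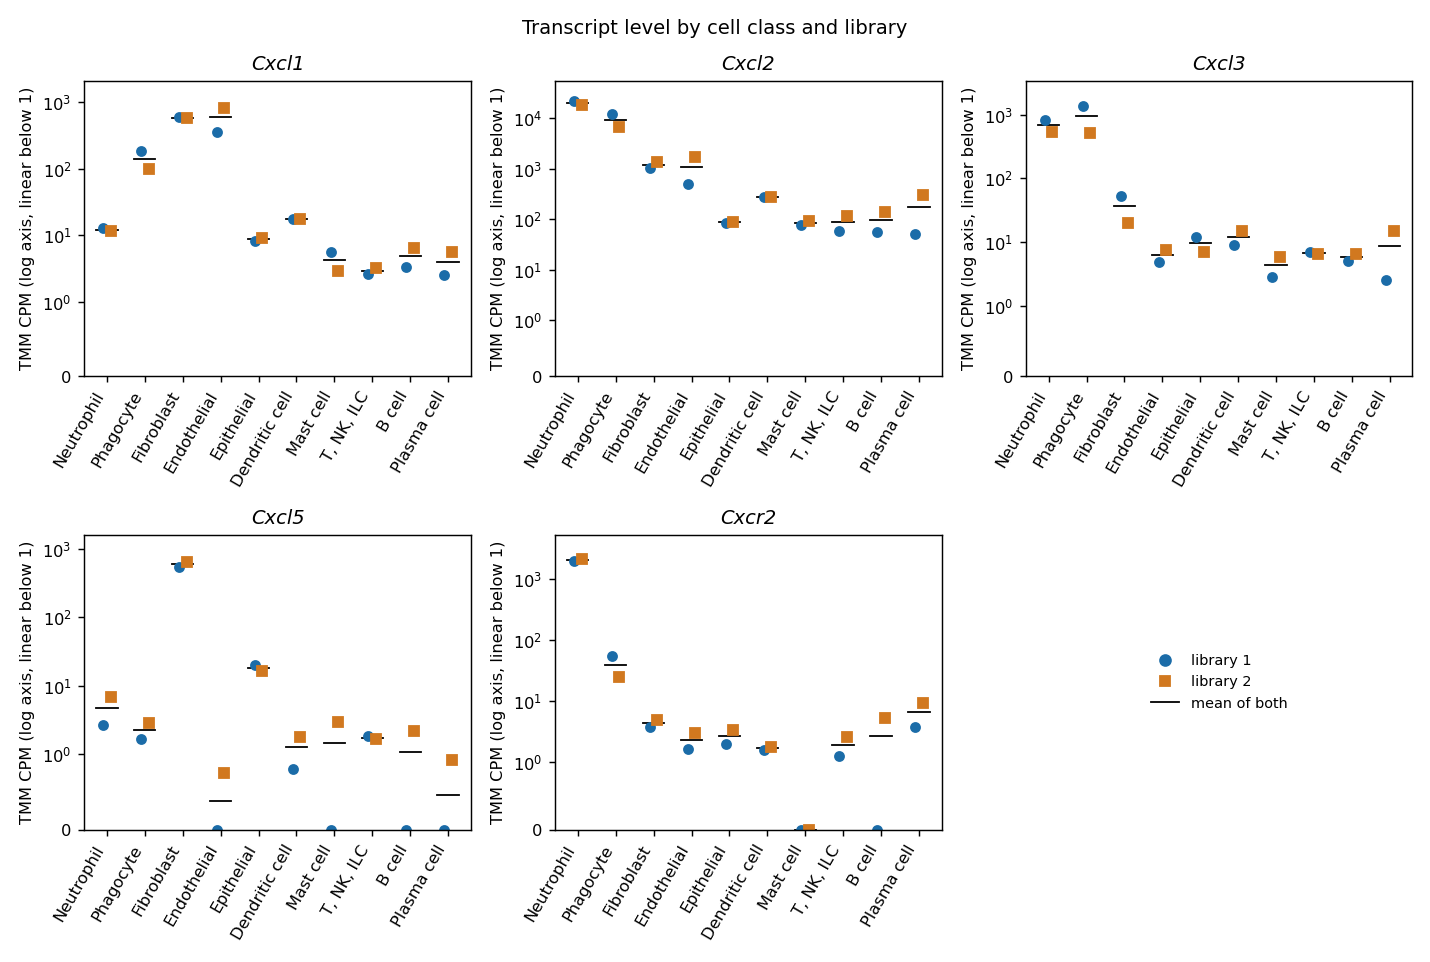
TMM CPM (log axis, linear below 1) of the 4 chemokines and Cxcr2 in the 10 tested classes, with circles for library 1, squares for library 2 and lines for the mean. Cxcl1 peaks in endothelial cells and fibroblasts, Cxcl2 and Cxcl3 in neutrophils and phagocytes, Cxcl5 in fibroblasts (546 and 650.4) and Cxcr2 in neutrophils (1968 and 2147).

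Within the endothelium Cxcl1 was higher in the cells named blood endothelium. That name pools subclusters of a second clustering, number 0 (20 and 31 cells) and number 1 (17 and 54 cells). Cxcl1 and Cxcl2 were among the leading genes, those most above the other subclusters, of number 1 alone. Blood endothelium, 37 and 85 cells, had 676 and 1065 TMM CPM, and lymphatic endothelium, 31 and 52 cells, had 29.8 and 31.65. The ranges lay far apart, at 4.86 ± 0.53 (adjusted p = 2.54e-07, with 11.5% of genes called in this pair). The same held for Cxcl2, at 996 and 2191 in blood and 26.8 and 58.0 in lymphatic endothelium, a difference of 5.20 ± 0.50 (adjusted p = 3.45e-08). Few cells carried much of this RNA: 1 endothelial cell of library 2 held 482 of the class's 1090 Cxcl1 UMIs (44.2%). Without the top cell of each library, blood endothelium still had 686 and 779.8 plain CPM of Cxcl1 and 959 and 1811 of Cxcl2.

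Fibroblast subtypes also differed. Subepithelial fibroblasts, 48 and 75 cells, had 1025.5 and 1217 TMM CPM of Cxcl1, against 205 and 197 in adventitial fibroblasts, 41 and 97 cells. Cxcl2 was at 2125 and 3252 against 99.0 and 201, and Cxcl5 at 1048 and 1149.8 against 119 and 355. In none of the 3 did the ranges overlap, with differences of 2.49 ± 0.38 for Cxcl1 (adjusted p = 2.18e-05), 4.15 ± 0.43 for Cxcl2 (adjusted p = 5.18e-08) and 2.24 ± 0.26 for Cxcl5 (adjusted p = 7.44e-07). In all, 3 of 5 genes were higher in subepithelial cells, where 16.8% of all genes were called in either direction. Both names pool unlike subclusters. Subepithelial cells were number 1 (28 and 59 cells), with Cxcl2 among its leading genes, and number 2 (20 and 16), led by none of the 5 genes. Adventitial cells were number 3 (33 and 71), number 0 (6 and 20) and number 4 (2 and 6, led by Upk3b). Numbers 0 and 4 had no adventitial marker among their leading genes. A single fibroblast held 49.6% of the class's Cxcl2 UMIs in library 1 and another held 31.4% in library 2. Without the top cell of each subtype and library, Cxcl2 stood at 1359 and 2547 plain CPM in subepithelial and 59.4 and 133 in adventitial fibroblasts.

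**Figure D2:**
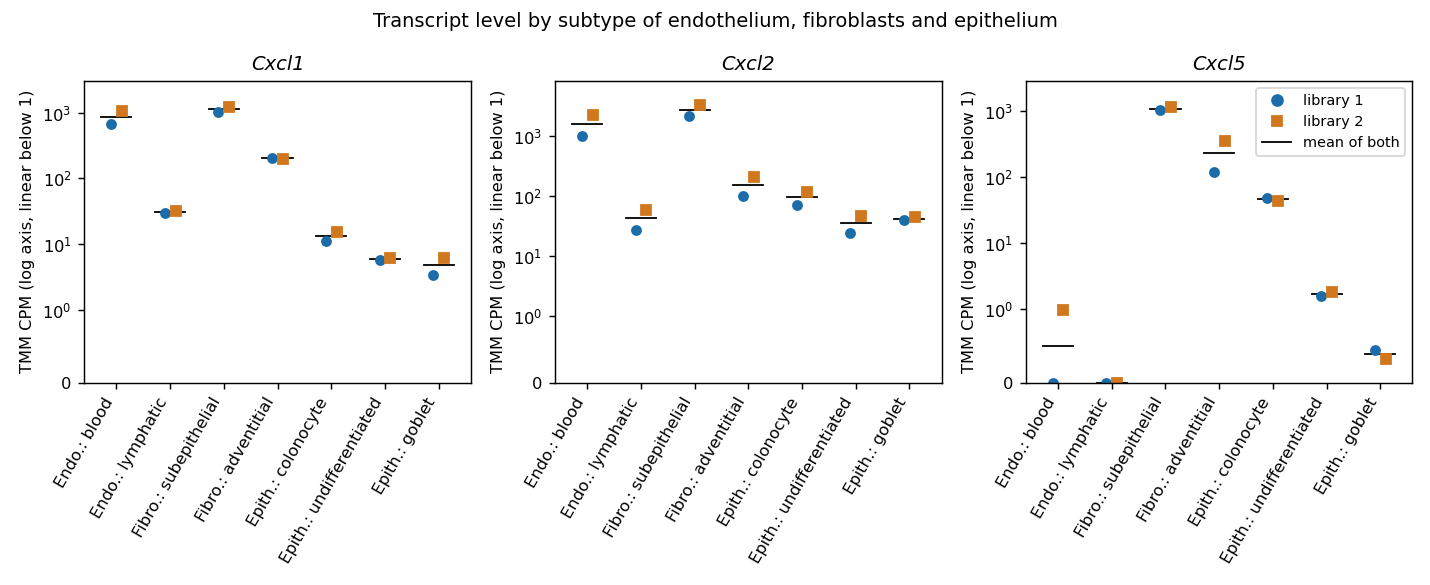
TMM CPM of Cxcl1, Cxcl2 and Cxcl5 in subtypes of endothelium, fibroblasts and epithelium, with circles for library 1, squares for library 2. Blood endothelium and subepithelial fibroblasts sit above their partner subtype for Cxcl1 and Cxcl2 in both libraries, and colonocytes lead the epithelium for Cxcl5 (48.8 and 43.4).

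Cxcl2, the ligand made in bulk by activated myeloid cells, was highest by TMM CPM in the cells it attracts. Neutrophils had 21923 and 18376.5 TMM CPM and phagocytes 11970.2 and 6693, followed by fibroblasts (1025 and 1344) and endothelial cells (510.03 and 1687). The neutrophil and phagocyte ranges did not overlap, but the difference of 1.06 ± 0.48 missed the threshold (adjusted p = 0.0735), in a pair in which 51.0% of genes were called. Endothelial cells and fibroblasts, at 17.0% and 30.9% and at 19.2% and 32.0% of thinned cells with a Cxcl2 UMI, overlap with B cells (given below) in their share of cells. Their levels were above those of B cells: B cells minus fibroblasts gave -3.67 ± 0.56 (adjusted p = 1.87e-05) and B cells minus endothelium -3.45 ± 0.55 (adjusted p = 4.46e-05). Phagocytes exceeded fibroblasts by 3.09 ± 0.52 (adjusted p = 3.51e-05). TMM scaling raised every neutrophil level against phagocytes by 0.84 and 0.82 (log2) over scaling by library size alone, under which the difference was 0.23 ± 0.46. Phagocytes (740 and 2558 cells) held 64.6% and 65.4% of all Cxcl2 UMIs in kept cells, and neutrophils (442 and 932) 29.6% and 27.8%. Per cell, phagocytes had a mean of 96.8 and 47.4 Cxcl2 UMIs and neutrophils 74.2 and 55.3, so that order differed between the libraries.

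Nearly every neutrophil carried Cxcl2. With cells thinned to 2000 UMIs (34 and 63 shallower neutrophils left out), 98.5% (95% exact interval 96.8% to 99.5%) and 94.7% (93.0% to 96.1%) had at least 1 Cxcl2 UMI. Among phagocytes, with 46 and 141 left out, the shares were 73.2% and 75.8%. The median neutrophil held 61.5 and 45 Cxcl2 UMIs before thinning. Cells that should lack the gene also had UMIs of it, in 11.6% and 26.6% of B cells and 2.99% and 16.35% of plasma cells, at median depths of 2905 and 2345 UMIs and of 18117 and 13862. Epithelial cells, at 10.5% and 14.96%, lay below B cells in both libraries. They lay above plasma cells in library 1 and below them in library 2. Before thinning 49.6% and 74.3% of epithelial cells had a UMI, at median depths of 17909.5 and 24526, against 34.8% and 63.3% of plasma cells. A single epithelial cell of library 1 held 363 Cxcl2 UMIs, 10.8% of the class's. Depth differs between these classes, so the shares do not settle whether some epithelial cells express Cxcl2.

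Cxcl3, a close relative of Cxcl2, had the same 2 leading classes in the opposite order. Phagocytes had 1361 and 525 TMM CPM and neutrophils 826 and 541. The ranges overlapped, and phagocytes over neutrophils gave 0.39 ± 0.30 (adjusted p = 0.299), but 1.21 ± 0.30 (adjusted p = 0.00168) with library sizes alone. Neutrophils exceeded fibroblasts, at 53.5 and 20.2, by 4.34 ± 0.37 (adjusted p = 3.32e-09, with 65.9% of genes called). In library 1 a single fibroblast held 44 of the class's 57 Cxcl3 UMIs. Without the top cell of each library fibroblasts had 15.3 and 15.1 plain CPM of Cxcl3. Phagocytes held 81.0% and 82.6% of all Cxcl3 UMIs. The balance of both ligands shifted with class: per Cxcl3 UMI there were 8.80 and 12.7 Cxcl2 UMIs in phagocytes but 26.5 and 34.0 in neutrophils. Transcripts of the pair share up to 157 identical bases, at least 227 bases from the 3' end of Cxcl2 transcripts and 850 from that of Cxcl3, so reads from there could be uncertain.

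**Figure D3:**
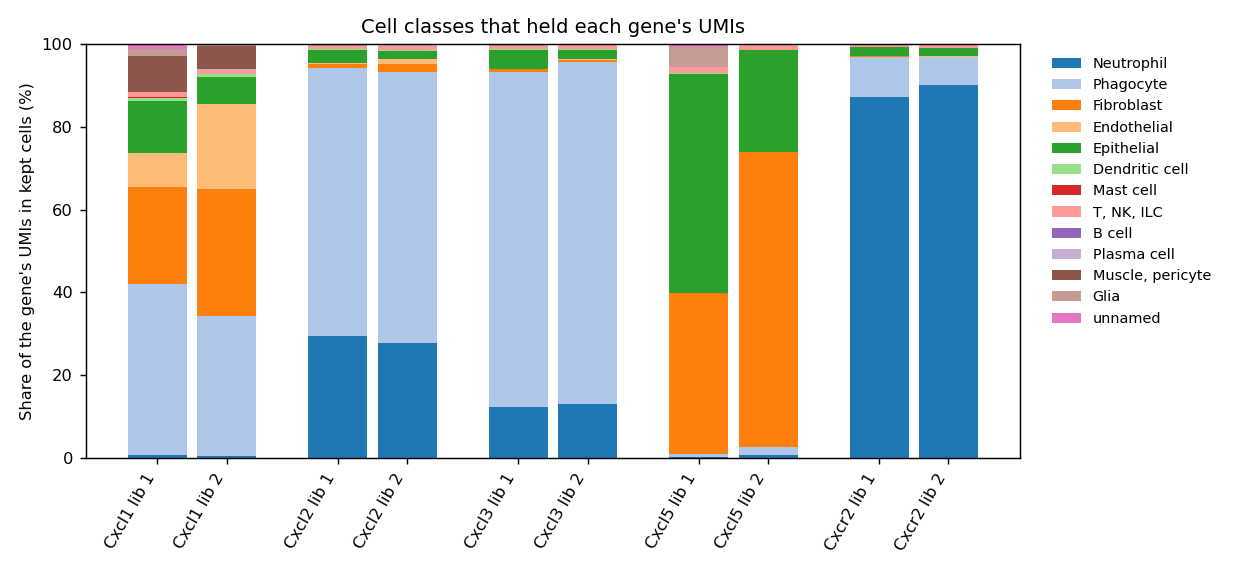
Share (%) of each gene's UMIs in kept cells that fell in each class, with library 1 and library 2 side by side. Phagocytes hold most Cxcl2 and Cxcl3, neutrophils hold 87.2% and 90.1% of Cxcr2, and Cxcl5 divides between fibroblasts and epithelium.

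The same phagocytes tended to carry both genes. Of thinned phagocytes with Cxcl3, 206 of 207 and 295 of 300 also had Cxcl2, against 62.0% and 72.6% of those without Cxcl3. Cxcl3 was the more restricted, with a UMI in 29.8% (26.4% to 33.4%) and 12.4% (11.1% to 13.8%) of thinned phagocytes and 30.1% and 17.1% of neutrophils, against 2.03% and 1.93% of T, NK and innate lymphoid cells.

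Among named phagocyte subtypes the inflammatory monocytes led. Cxcl2 stood at 12165 and 6801 TMM CPM in inflammatory monocytes (159 and 601 cells), 4902 and 6311 in monocytes (134 and 1082) and 2726 and 2430 in macrophages (220 and 500). Cxcl3 ran at 1057 and 625, 115 and 282, and 382 and 119 in the same order. For both genes the inflammatory monocytes were above the other subtypes in each library. These names pool subclusters of unlike library makeup. Inflammatory monocytes were number 1 (69 and 92 cells), with Cxcl3 and Cxcl1 among its leading genes, and number 2 (90 and 509), led by none of the 5 genes. Macrophages were numbers 3 (204 and 449) and 4 (16 and 51), and monocytes numbers 5 (119 and 808) and 8 (15 and 274). Against macrophages Cxcl2 was higher by 1.91 ± 0.38 (adjusted p = 0.000952), Cxcl3 by 1.83 ± 0.47 (adjusted p = 0.00823; 0.0552 without the library block and 0.115 in DESeq2), and 4 of 5 genes were called where 13.7% of all genes were. Against monocytes only Cxcl3 of the 5 was called (1.85 ± 0.47, adjusted p = 0.0116, 8.28% of all genes called), a value that turned negative when only cells with at least 500 genes, or under 10% mitochondrial UMIs, were kept (-0.73 and -1.72) and at a coarser clustering (-1.32), where subtypes were redrawn.

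The highest Cxcl2 and Cxcl3 levels among phagocytes were in a subcluster left unnamed because its leading genes, S100a9, S100a8, Mmp8, Cxcr2 and G0s2, include neutrophil markers. It held 193 and 279 cells, 26.1% and 10.9% of the phagocytes. In a fit of all subclusters, added after the values were seen, Cxcl3 stood there at 3047 and 1797 TMM CPM, against 817 and 491 in inflammatory monocytes, and Cxcl2 at 23470.4 and 13889 against 9406 and 5339.57. No ranges overlapped. Inflammatory monocytes minus the subcluster gave -1.89 ± 0.45 for Cxcl3 and -1.34 ± 0.39 for Cxcl2, in a pair in which 15.4% of genes were called. The subcluster was singled out for its high levels of these genes, so both values are given with no test. Cxcl1 did not separate the subcluster, at 113 and 162 TMM CPM, from inflammatory monocytes, at 267 and 79.9 (0.21 ± 0.43, adjusted p = 0.847). Cxcr2, one of the leading genes that set the subcluster apart and so given with no test, was at 150.3 and 118 against 5.60 and 8.45. The subcluster was also above monocytes (10.1% of genes called) and macrophages (24.9% called) for Cxcl2 and Cxcl3. It held 71.2% and 42.0% of the phagocytes' Cxcl3 UMIs and 87.5% and 58.9% of their Cxcr2 UMIs.

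The marker values of this subcluster were mixed. All 12 phagocyte markers were detected, summing to 9159.93 and 12293 CPM, with Ccr2, the monocyte chemokine receptor, at 421 and 653 and Csf1r, the receptor for colony-stimulating factor 1, at 243 and 233. The neutrophil list summed to 21892 and 22761 CPM, against 324638 and 295526 in neutrophils and 1433 to 4348 in the other named phagocyte subtypes. Its members did not scale together: Retnlg stood at 0.361% and 0.443% of its neutrophil level, S100a8 at 9.03% and 9.94%, Trem1 at 41.5% and 39.2%, Il1r2, a decoy receptor for interleukin-1, at 73.5% and 71.3%, and Clec4d at 134% and 106%. Cxcr2 stood at 14.5% and 10.8%. The markers named here were singled out after their values were seen. Median doublet scores were 0.019 and 0.028, no higher than in the other named phagocyte subtypes. The part of neutrophil RNA or of doublets in these levels was not tested.

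Leaving out subclusters led by another class's markers moved both phagocyte comparisons. Neutrophils then exceeded phagocytes for Cxcl2 by 1.87 ± 0.44, and phagocytes minus neutrophils for Cxcl3 became -0.72 ± 0.26. The phagocyte subcluster removed held 62.3% and 25.5% of the phagocytes' Cxcl2 UMIs and 71.2% and 42.0% of their Cxcl3 UMIs. Taking out the cells with the highest levels lowers the phagocyte side in itself, so these values are given with no test. This alternative was added after the values were seen.

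**Figure D4:**
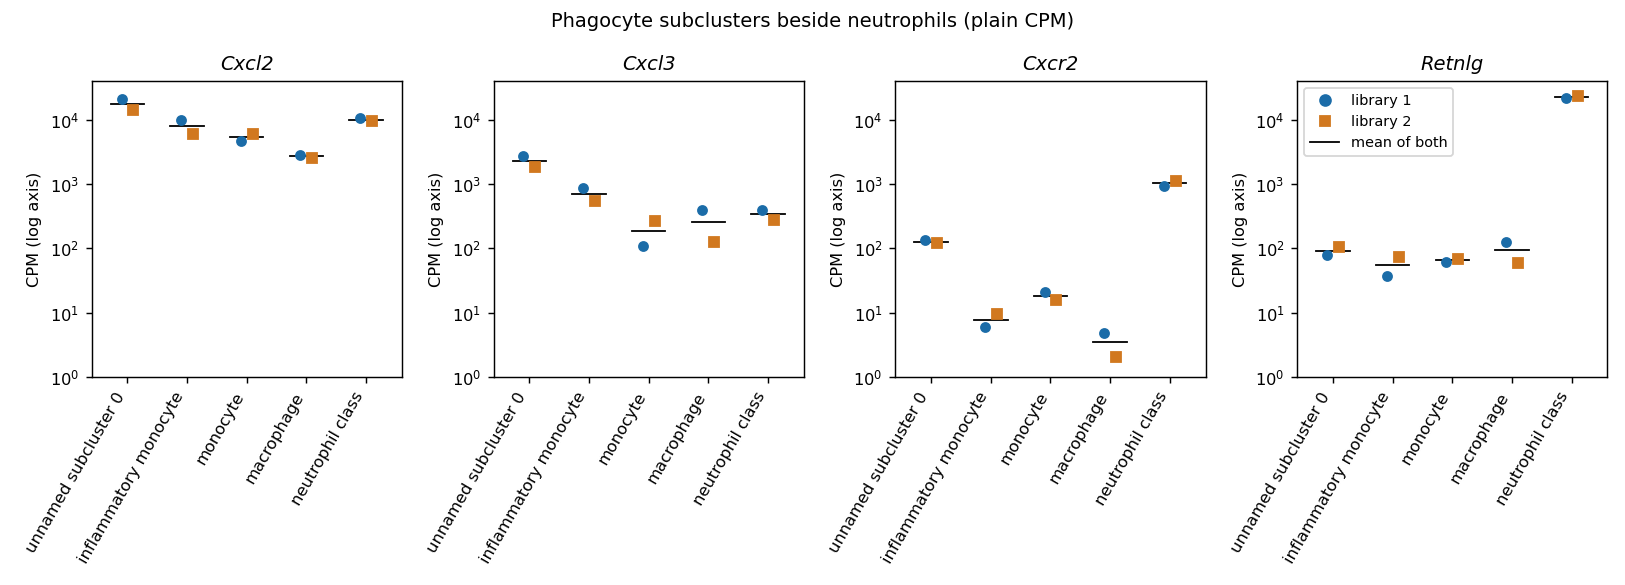
Plain CPM (log axis) of Cxcl2, Cxcl3, Cxcr2 and Retnlg in the unnamed subcluster, 3 named phagocyte subtypes and the neutrophil class, by library. Retnlg, a neutrophil marker, is at 78.3 and 105 CPM in the subcluster and at 21684 and 23757 in neutrophils, while S100a8, of the same list but not drawn, is at 13936 and 13972 in the subcluster against 727 and 1608 in the other phagocytes. Cxcl3 is highest in the subcluster.

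Cxcl5, a ligand of epithelial and mesenchymal cells, had a pattern of its own. Fibroblasts had 546 and 650.4 TMM CPM, epithelial cells 19.95 and 16.7, neutrophils 2.68 and 6.78, and phagocytes 1.67 and 2.82. Fibroblasts were far above every other tested class in both libraries, exceeding epithelium by 5.02 ± 0.22 (adjusted p = 1.46e-13, in a pair in which 57.2% of genes were called). Epithelium exceeded neutrophils by 1.83 ± 0.33 (adjusted p = 5.64e-05, with 68.7% of genes called). Epithelial cells, 1806 and 1189 in number, held 52.9% of Cxcl5 UMIs in library 1 and 24.4% in library 2, against 39.0% and 71.2% in fibroblasts.

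Among named epithelial subtypes Cxcl5 was highest in colonocytes, the absorptive cells of the surface. Colonocytes had 48.8 and 43.4 TMM CPM (1180 and 745 cells), undifferentiated cells 1.59 and 1.84, and goblet cells, the mucus producers, 0.45 and 0.32, from 4 and 3 UMIs. The colonocyte name pools many subclusters, and Cxcl5 was among the leading genes of number 12 alone (26 and 177 cells). The pooled subclusters differed in library makeup, number 3 for example holding 312 and 8 cells. Colonocytes exceeded goblet cells by 6.83 ± 0.44 (adjusted p = 2.22e-12) and undifferentiated cells by 4.76 ± 0.35 (adjusted p = 1.42e-11). In these pairs 63.1% and 65.4% of all genes were called, and 3 of 5 and 5 of 5 of the chemokine and receptor genes were. Among epithelial subclusters left unnamed, number 15 (25 and 24 cells, led by T-cell genes) had 34.2 and 18.9 TMM CPM in the fit of all subclusters, and colonocytes minus it gave 0.60 ± 0.49 (adjusted p = 0.499). Number 2 (140 and 36 cells) had 22.9 and 0.90. In library 2, 1 colonocyte held 33.3% of the colonocyte Cxcl5 UMIs; without the top cell of each library the level went from 29.5 and 31.9 to 24.4 and 21.3 plain CPM. Few epithelial cells had it: 2.02% (1.42% to 2.78%) and 1.71% (1.05% to 2.63%) of thinned cells, against 0.51% and 0.43% of T, NK and innate lymphoid cells, whereas 20.5% and 22.1% of fibroblasts did.

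Cxcr2, the receptor, was concentrated in neutrophils, although it was held out of the clustering. It stood at 1968 and 2147 TMM CPM there, at 54.7 and 24.5 in phagocytes and at means of 6.52 or less in every other tested class. The neutrophil range lay far above that of phagocytes, at 5.72 ± 0.36 (adjusted p = 2.52e-10). Of thinned neutrophils 82.4% (78.3% to 85.9%) and 84.8% (82.2% to 87.1%) had a Cxcr2 UMI, and 96.4% and 96.1% did before thinning, at median depths of 6765.5 and 5694 UMIs. The thinned shares compare with 0.13% and 0.60% of T, NK and innate lymphoid cells. The receptor was carried evenly: the top 10% of neutrophils held 24.1% and 24.0% of its UMIs. For Cxcl2 in neutrophils this share was 27.0% and 29.7%, and for Cxcl3 62.9% and 82.5%. The counts were not thinned, and Cxcl3 had a mean of only 2.79 and 1.63 UMIs per neutrophil. A low count raises the share in itself, so these genes are not ranked by evenness. The top 10% of fibroblasts held 80.8% and 73.0% of theirs for Cxcl1. Cxcl2 was in 98.5% and 95.3% of thinned neutrophils with Cxcr2 and in 98.6% and 91.7% of those without, so most neutrophils had the ligand gene whether or not the receptor was seen.

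Differences between neutrophil subtypes did not pass the test for these genes. Granule-low neutrophils (106 and 194 cells) had 27260.2 and 19624 TMM CPM of Cxcl2 and 2652 and 2232 of Cxcr2, and granule-high neutrophils (336 and 738 cells) had 19097 and 17316 and 1669 and 2036. The granule-high name pools unlike subclusters. Number 1 (163 and 244 cells) was led by granule genes such as Ltf, Camp and Ngp. Numbers 0 (156 and 311 cells) and 3 (17 and 183 cells) had no granule-high marker among their leading genes. The Cxcr2 and Cxcl2 values were higher in granule-low cells in both libraries, but the differences of 0.38 ± 0.37 (Cxcl2, adjusted p = 0.683) and 0.39 ± 0.23 (Cxcr2, adjusted p = 0.403) did not pass. In edgeR's fit of named subtypes 0 of 5 genes were called, where 6.07% of all genes were, and 0 had an unadjusted p under 0.05. The edgeR fit of all subclusters also called 0, with 1 (Cxcr2, unadjusted p = 0.0250) under 0.05; DESeq2 called 0, with 1 (Cxcr2) under 0.05 unadjusted. With library sizes alone the Cxcr2 difference was 0.81 ± 0.23 (adjusted p = 0.0358) and that of Cxcl2 0.79 ± 0.34 (adjusted p = 0.229). Among phagocytes, monocytes had more Cxcr2 than macrophages, at 21.8 and 16.8 against 4.73 and 1.91, a difference of 2.62 ± 0.40 (adjusted p = 7.52e-05, with 6.72% of genes called). Macrophage Cxcr2 rested on 11 and 9 UMIs. The neutrophil marker list summed to 2037 and 4348 CPM in monocytes and 1885 and 1433 in macrophages, and its part in this difference was not tested.

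The pathway around these genes was read from a list of 41 genes, of which 38 were tested: other chemokines and receptors, the cytokines that induce them, adapters, regulators of transcription and mRNA decay, and signalling below Cxcr2. Each class was set against the mean of the log2 levels of the other 9, in which a class with few counts weighs as much as a rich one. A gene can thus be called higher and still lie below the arithmetic mean of the others, as Rgs2 (100 and 131 TMM CPM against 152) and Pik3cg (51.5 and 56.4 against 57.7) did in neutrophils. In neutrophils 28 of 38 were higher and 2 lower (27.7% and 28.2% of all genes; 23 and 5 list genes with library sizes alone), with a median difference of 2.23 against -0.15 over all genes. On this log2 scale all 9 genes of the list of signalling below Cxcr2, all 6 of transcription and mRNA decay and all 4 of other attractant receptors were higher. Csf3r, the receptor for the granulocyte growth factor, stood at 884 and 755 TMM CPM, 7.74 ± 0.17 above the mean (adjusted p = 1.74e-18), Fpr1, a formyl-peptide receptor, at 560 and 437, C5ar1, the receptor for complement C5a, at 689 and 627, Fpr2, another formyl-peptide receptor, at 886 and 964, and Cxcr1, a second chemokine receptor, at 14.7 and 13.6. Il1r1 and Traf3ip2, which pass on interleukin-1 and interleukin-17 signals, were lower, by -1.99 and -1.40. Among the 5 genes Cxcl2, Cxcl3 and Cxcr2 were higher in neutrophils and Cxcl1 was lower (-0.98 ± 0.40, adjusted p = 0.0411).

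In phagocytes 29 of 38 were higher and 4 lower (28.7% and 16.4% of all genes), with a median of 1.95 against 0.06. The largest difference was that of Ppbp, a chemokine gene of platelets, at only 3.01 and 10.9 TMM CPM (5.97). Fpr1 was at 152 and 165 (5.77). Il1b, the main form of interleukin-1 from myeloid cells, stood at 9671 and 7610 TMM CPM (5.55). Neutrophils were close to this for Il1b, at 8152 and 6784 (5.30, also called higher). In phagocytes Il1a was at 627 and 458 (5.78 ± 0.20), and Csf3, the growth factor that Csf3r binds, at 230 and 55.3. Pf4, the neighbour gene of Cxcl3, was at 197 and 53.2. Cxcl12, the ligand that holds cells in the bone marrow, was lower, by -1.74. The other lower ones were Il17rc, Traf3ip2 and Grk6 (-1.69, -0.90 and -0.41). Of the 5 genes, 4 were higher on the log2 scale and none lower, with Cxcl5 uncalled; Cxcr2, at 54.7 and 24.5, lay below the arithmetic mean of the others, 231, which neutrophils set.

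In fibroblasts 10 of 38 were higher and 17 lower (28.4% and 21.2% of all genes), with a median of -0.66. The higher ones included Cxcl12 at 550 and 826 TMM CPM (8.04 ± 0.19), its scavenging receptor Ackr3 at 87.3 and 68.8 (7.08), Ackr1, a chemokine-binding receptor without G-protein signalling, at 12.2 and 14.9 (6.01), Il1r1 at 228 and 243 (6.50 ± 0.16) and Csf3 at 78.8 and 84.1, while Rgs18 was at 0 in both libraries and Cxcr4, Rac2, Pik3cg and Tnf, largely genes of leukocytes, were lower by -3.41, -3.38, -3.21 and -2.40. Of the 5 genes, Cxcl1, Cxcl2 and Cxcl5 were called higher in fibroblasts, Cxcl2 on the log2 scale only (its arithmetic mean in the other classes was 3488). In endothelial cells 12 were higher and 14 lower (21.9% and 14.1%), with a median of -0.85, and the largest differences were those of Ackr3 at 138 and 171 TMM CPM (8.22), Csf3 at 344 and 432 (7.49 ± 0.33), Ackr1 at 0 and 54.2, Cxcl12 at 258 and 264 (6.52) and Ppbp at 8.12 and 3.77 (5.46). The most negative were Pik3cg (-3.64), Ltb4r1 (-3.21), Arrb2 (-3.05), Rac2 (-2.95) and Tnf (-2.89). Of the 5 genes, Cxcl1 and Cxcl2 were called higher in endothelium, Cxcl2 on the log2 scale only (arithmetic mean of the others 3497), and Cxcl3 and Cxcl5 lower. In epithelial cells 2 were higher and 22 lower (36.7% and 23.1%), with a median of -1.39. The higher ones were Il17rc, a subunit of the interleukin-17 receptor, at 84.2 and 74.7 (3.79 ± 0.15), and its adapter Traf3ip2 at 20.3 and 15.8 (1.21), and the most negative were Cxcr4 (-4.38), Rgs2 (-4.22), Pik3cg (-3.80), Rac2 (-3.76) and Arrb2 (-3.42). Of the 5 genes, Cxcl5 was called higher in epithelium, on the log2 scale only (arithmetic mean of the others 67.9), and Cxcl1, Cxcl2 and Cxcl3 lower.

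**Figure D5:**
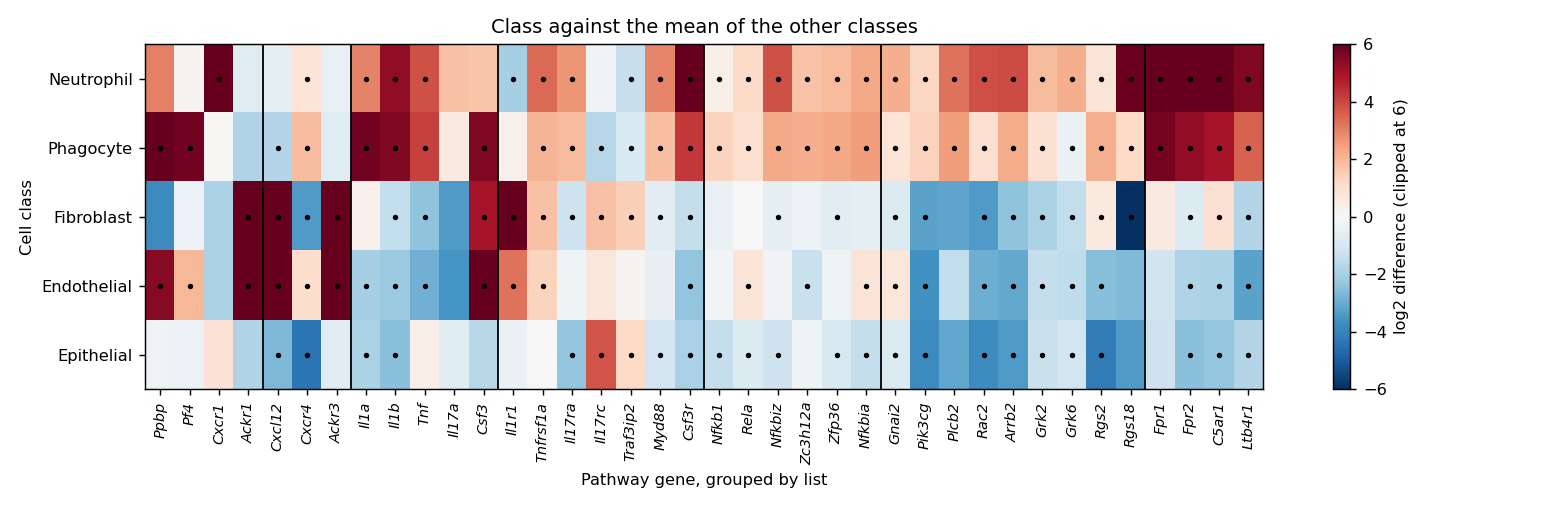
Heatmap of the log2 difference, clipped at 6, of 38 pathway genes in 5 classes against the mean of the other tested classes, with black dots on genes called at adjusted p under 0.05. Neutrophils and phagocytes are higher for 28 and 29 genes, epithelium for 2.

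Likeness over 52 sums of 26 clusters (Pearson r of log2(TMM CPM + 1), points that share libraries and depth) gave each gene its own neighbours among 15441. Cxcl1 was most like Itga5 (0.889), Csf3 (0.858) and Sphk1 (0.856), and Cxcl2 most like Acod1 (0.908), Cebpb (0.906) and Mapkapk2 (0.896). Cxcl3 was most like Cxcl2 (0.866), then Arg2 (0.862) and Fbxl5 (0.841). Cxcl5 had Col5a3 (0.8), Pla2r1 (0.797) and Gria4 (0.794), and Cxcr2 had S100a8 (0.942), S100a9 (0.939) and Wfdc21 (0.928).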

How the data were processed

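The deposited matrices hold raw UMI counts per gene and cell barcode, which the authors made with Cell Ranger (7.0.0 per the file headers, 8.0.0 per the submitters' processing notes) on mouse build mm10. The sources used here name no annotation for the counting. The labels' protocols give a 3' V3 kit for capture and 3' v2 reagents for the libraries. The genes and lists were chosen with earlier results of these data known.

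Barcodes with under 200 genes (36 and 9) or at least 20% mitochondrial UMIs (840 and 475) were removed, as were the top Scrublet scorers at 0.8% per 1000 barcodes (262 and 666; the automatic threshold marked 1 and 204). Cells were normalised to 10000, reduced to 2000 variable genes and 30 components (20 for subclusters) and clustered with 15 neighbours at Leiden resolution 1.0 (subclusters 0.5, epithelium 1.0) in scanpy 1.11.5, with 914 genes held out, including all chemokine, receptor and list genes. A cluster stayed unnamed with fewer than 3 markers at 10 CPM, at least 2 leading genes of another class outnumbering its own, a low median depth without own markers, or under 50% of cells with 2 markers; this scoring was set after clusters were seen. Unnamed cells numbered 465 of 13920. Classes were fitted over 14026 genes (20 sums, 9 residual degrees of freedom) and subtypes over 14208 (24 sums, 11), in edgeR 4.0.16 (R 4.3.3) with TMM, its low-count filter and Benjamini-Hochberg adjustment over all genes at 0.05. The library block pairs sums of 1 suspension. Alternatives included DESeq2 1.42.0. Each SE follows from fold and p. Intervals where given are exact and cover counting error only. The text names the 5 genes, up to 5 list genes per direction by size, and 3 genes of highest likeness per gene. Il1b in phagocytes and Il1b, Rgs2 and Pik3cg in neutrophils are named besides these.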

Additional observations from a re-analysis of the deposited data

Results flagged for a closer look

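Signals outside the comparisons lay above the limit that a count of 0 allows (3 counts); values are plain CPM in library 1 and library 2. Barcodes removed by the filters (1138 and 1150) held Cxcl1 at 23.6 and 87.8, Cxcl2 at 648 and 1575, Cxcl3 at 61.0 and 115, Cxcl5 at 15.4 and 48.9 and Cxcr2 at 37.6 and 62.3.

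Cells like smooth muscle or pericytes (13 and 23), too few to test, held Cxcl1 at 2284 and 1527 and Cxcl2 at 1183 and 476. Their Cxcl1 came to 226 and 292 UMIs, of which 1 cell held 81 and 50. The 4 and 15 glia-like cells held Cxcl1 at 2845 and 421 and Cxcl2 at 2789 and 308, and in library 1 every UMI of both (51 and 50) was in 1 cell. That library's glia-like cells also held Cxcl5 at 4128 (74 UMIs, 4.96% of all its Cxcl5, in 1 cell) and Cxcl3 at 335 (6 UMIs), while library 2 had 0 UMIs of both in its 15 cells, which allows up to 84.1. Clusters left unnamed (235 and 230 cells) held Cxcl1 at 42.3 and 25.6, Cxcl2 at 519 and 473 and Cxcl3 at 51.1 and 6.41.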

How the results depend on the processing

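The leads of fibroblasts for Cxcl5 and of neutrophils for Cxcr2 kept their direction and call in every alternative, as did the blood endothelial and colonocyte comparisons. Cxcl1 in endothelium over fibroblasts became -0.0695 with DESeq2, -0.0225 without the low-count filter, -0.0520 with no doublets removed, -0.0190 without subclusters led by another class, and 1.60 (adjusted p = 4.4e-05) with cells of at least 500 genes, where no subepithelial cluster entered the fibroblast class. Cxcl2 in neutrophils over phagocytes passed at 1.01 without the low-count filter, 1.07 at 500 genes, 1.06 under 10% mitochondrial UMIs and 1.16 at resolution 2.0. It was 1.87 without subclusters led by another class, given with no test because this removes the phagocyte subcluster highest in Cxcl2. Cxcl3 in phagocytes over neutrophils was 1.21 with library sizes only and -0.72 without those subclusters. Cxcl3 in inflammatory monocytes over macrophages missed the threshold with DESeq2 (1.76), no replicate block (1.75) and resolution 0.5 (1.17). Over monocytes it was 1.92 with DESeq2, -0.73 at 500 genes, -1.72 under 10% mitochondrial UMIs and -1.32 at resolution 0.5. Cxcr2 in granule-low over granule-high neutrophils passed at 0.81 with library sizes only, 0.81 with no doublets removed and 0.93 at 500 genes. List genes lower in neutrophils numbered 5 with library sizes only and 1 with no doublets removed, and lower in endothelium 8 with no doublets removed and 9 under 10% mitochondrial UMIs. The causes were not tested.

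Leaving out each library in turn gave -0.53 to 0.45 for the lead in Cxcl1, 0.85 to 1.44 in Cxcl2, -0.03 to 0.75 in Cxcl3, 4.57 to 5.20 in Cxcl5 and 5.14 to 6.44 in Cxcr2. It gave 4.47 to 5.09 (Cxcl1) and 5.18 to 5.26 (Cxcl2) for blood over lymphatic endothelium, 2.32 to 2.59, 3.98 to 4.42 and 1.66 to 3.14 for Cxcl1, Cxcl2 and Cxcl5 in subepithelial fibroblasts, and 6.60 to 6.98 and 4.60 to 4.86 for colonocyte Cxcl5 over goblet and undifferentiated cells. Inflammatory monocytes over macrophages ran from 1.49 to 2.10 (Cxcl2) and 1.41 to 2.40 (Cxcl3), over monocytes from 1.15 to 3.21 (Cxcl3), monocytes over macrophages from 2.12 to 3.12 (Cxcr2), and granule-low over granule-high from 0.19 to 0.41 (Cxcl2) and 0.15 to 0.56 (Cxcr2). Dropping a library leaves no residual replicate, so these are values with no test. No monocyte subtype was found with no doublets removed or at resolution 2.0, and the subepithelial comparison had no value at 500 genes.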
